A study of Mus musculus with 7 samples.

Results

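The 10 genes described here encode co-signalling molecules of antigen-presenting and myeloid cells: Cd274, Pdcd1lg2, Cd80, Cd86, Icosl, Cd276, Vsir, Cd40, Havcr2 and Cd200r1. They were taken by name from the 55341 gene names of the count table. They were selected on the counts of the inside and outside libraries, with that comparison already known. Their own values are therefore given as a description. Where calls over all genes include a member, they are counted and are not read as a test of that gene. Microglia, the brain's resident macrophages, had been sorted as CD11b+CD45low cells from 5xFAD mice on a C57BL/6 background, labelled 14 weeks old, 4 weeks after embryonic WT neurons were injected into the cortex. 5xFAD mice carry transgenes for human APP and PS1 with familial Alzheimer's disease mutations, driven by the neuronal Thy1 promoter. The groups comprised 3 libraries from inside the WT graft and 4 from small pieces of cortex near the transplant. Host genotype, age and injection were the same in both groups, so the control tissue also came from injected 5xFAD brains. No untransplanted or non-transgenic brain was part of the comparison. The labels do not say whether the libraries came from separate mice, so P values measure only the spread between these libraries.

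Co-signalling molecules set how strongly a T cell responds once its receptor has met antigen. CD80 and CD86 engage CD28 to costimulate and CTLA-4 to restrain, whereas PD-L1 (Cd274) and PD-L2 (Pdcd1lg2) engage PD-1 and dampen the response. Macrophages and microglia carry several of these molecules, and Cd274 is a textbook target of interferon-γ acting through JAK-STAT and IRF1.

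Total counts were between 18644807 and 25882122 per library, and 15257 genes were tested. Outside graft 1 had the smallest total, received the lowest quality weight in the fit (0.448, against 0.799 to 1.76 in the others) and stood apart on the first principal component (117, against 5.34 to 17.5 in the other outside libraries). Markers of microglia made up 33392 to 39356 counts per 1000000 (CPM, scaled by TMM) inside and 39120 to 42409 CPM outside. All 8 of these markers had a lower fitted level inside, with a median log2 fold change of -0.21, and none passed an adjusted P of 0.05 (voomWithQualityWeights or edgeR), although 5 had an unadjusted P below 0.05 with voomWithQualityWeights and DESeq2 called P2ry12. Over all genes, 12.2% had an unadjusted P below 0.05 with voomWithQualityWeights and 9.55% with edgeR, and DESeq2 called 2.76% at an adjusted P below 0.05. Lineage markers of the sort included CD3, CD45R, Ly6C and Ly6G.

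Cd274 (ENSMUSG00000016496.7) is a protein-coding gene of 7 merged exons on chromosome 19 (GRCm38, plus strand, 29367455 to 29388095). Pdcd1lg2 (ENSMUSG00000016498.10) follows on the same strand from 29410919 to 29471161. Cd80 (ENSMUSG00000075122.5) lies on chromosome 16, plus strand as well, from 38455561 to 38496335. The sequence before the RefSeq start of these 3 genes is shown because they were the members whose groups did not overlap. RefSeq promoters of GRCm38.p6 were matched for 7 of the 10 genes, and not for Cd86, Cd40 and Cd200r1. Capitals mark the letters that matched a searched motif on either strand.
Cd274, chr19:29367309-29367437, plus strand: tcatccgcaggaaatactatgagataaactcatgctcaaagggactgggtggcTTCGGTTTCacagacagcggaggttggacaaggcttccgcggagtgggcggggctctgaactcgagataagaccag
Pdcd1lg2, chr19:29410669-29410918, plus strand: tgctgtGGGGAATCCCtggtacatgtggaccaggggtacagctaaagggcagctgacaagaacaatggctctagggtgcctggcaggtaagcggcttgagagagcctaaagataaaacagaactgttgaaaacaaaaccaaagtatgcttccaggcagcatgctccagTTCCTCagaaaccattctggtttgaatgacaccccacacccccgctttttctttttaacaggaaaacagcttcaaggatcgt
Cd80, chr16:38458683-38458932, plus strand: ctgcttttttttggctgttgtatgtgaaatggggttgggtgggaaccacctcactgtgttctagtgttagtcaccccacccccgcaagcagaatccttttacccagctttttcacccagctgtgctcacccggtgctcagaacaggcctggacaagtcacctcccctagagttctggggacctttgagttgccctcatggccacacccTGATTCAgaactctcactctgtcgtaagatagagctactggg

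For Cd274 only the 129 bases nearest its start are printed, which hold no exon of a coding transcript, while the motif search covered 250 bases before each start. In the Cd274 window the letters GAAANNGAA, a shortened form of the site of interferon regulatory factors, matched on the minus strand between 76 and 68 bases before the start. The match also lies in the first exon of a non-coding transcript of the neighbouring gene Plgrkt, which is annotated on the minus strand from 29348599 to 29367390. This shortened form was chosen after the sequence had been seen, and it occurs in 7.12% of the 32817 promoter windows. The longer ISRE core, in which that form is followed by another A (2.97% of windows), the STAT form TTCNNNGAA (7.01%), the NF-kB motif (7.25%), the AP-1 form TGANTCA (6.75%) and the PU.1 core GAGGAA (23.3%) had no match there. The Pdcd1lg2 window held an NF-kB match between 244 and 235 bases and a PU.1 core between 82 and 77 bases before the start. The Cd80 window, which lies within the gene's GENCODE span because RefSeq places the start further along, held an AP-1 match between 42 and 36 bases before the start. Members whose groups overlapped held such matches too. The Icosl window had an NF-kB match, the Havcr2 window an AP-1 and a PU.1 core match, and the Cd276 window a PU.1 core. The Vsir window had no match. All of these matches are letters in a window and no binding was measured.

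Cd274, which encodes PD-L1, was 3.01-fold higher inside the graft. Its normalised level was 42.9, 39.1 and 39.3 CPM in inside grafts 1 to 3. Outside the graft it was 8.41, 17.95, 13.5 and 12.8 CPM in libraries 1 to 4. All 3 inside values lay above all 4 outside values, and the lowest inside value was more than double the highest outside value. The means were 40.4 ± 2.09 CPM (SD, n = 3) inside and 13.2 ± 3.90 CPM (SD, n = 4) outside, with a log2 fold change of 1.59 (SE 0.188, 95% confidence interval 1.18 to 2.00). Without outside graft 1 the outside mean was 14.8 ± 2.78 CPM and the log2 fold change 1.54. Leaving out any 1 library gave a log2 fold change between 1.52 and 1.68. In bulk RNA, a different share of cells that express a gene and a different amount of its RNA per cell cannot be told apart.

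An antisense gene, AC119228.1, shares 511 exon bases with Cd274, and the counting did not use strand. Its own count was 0 to 49 per library, compared with 158 to 1093 for Cd274. Reads within the shared bases cannot be told apart by gene without strand. These counts therefore do not show how many such reads lie in the Cd274 count.

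Pdcd1lg2, the gene of PD-L2, was barely detected. It had 19, 14 and 24 counts in inside grafts 1 to 3, or 0.745, 0.621 and 1.01 CPM. In outside grafts 1 to 4 it had 0, 12, 0 and 5 counts, or up to 0.533 CPM. The groups did not overlap, although the smallest inside count was only 2 counts above the largest outside count. The counts of 0 allow a level of up to 0.160 CPM in outside graft 1 and 0.121 CPM in outside graft 3 (3 counts), for counting error only. The fitted log2 fold change was 3.09 (SE 1.19, 95% confidence interval 0.46 to 5.71) with voomWithQualityWeights and 2.07 with edgeR, and 1.75 without outside graft 3. Because of this dependence on the fit, the size of the difference is poorly determined at this depth.

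Cd80 was the member that was lower in every inside library. It encodes B7-1, a ligand of CD28 and CTLA-4. The inside values were 25.2, 18.4 and 19.05 CPM. The outside values were 28.6, 28.6, 31.2 and 37.4 CPM. The groups did not overlap, and inside graft 1 came closest to the outside libraries. The mean was 20.9 ± 3.78 CPM (SD, n = 3) inside and 31.4 ± 4.14 CPM (SD, n = 4) outside, with a log2 fold change of -0.63 (SE 0.191, 95% confidence interval -1.05 to -0.21). It stayed between -0.80 and -0.49 with each library left out.

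Cd86, which encodes B7-2 and shares both receptors with B7-1, was high and nearly level. It had 411, 387 and 396 CPM inside and 388, 382, 402 and 434 CPM outside, so the groups overlapped. The log2 fold change was -0.03, and its 95% confidence interval ran from -0.22 to 0.16. Within each library, the Cd274 level per kilobase was 0.100 to 0.105 of that of Cd86 inside and 0.0219 to 0.0475 outside. The ratio of Cd274 to Cd80 per kilobase was 1.74 to 2.18 inside and 0.301 to 0.641 outside. Cd274 therefore lay above Cd80 per length in all 3 inside libraries and below it in all 4 outside libraries. Cd86 exceeded Cd80 per kilobase in every library, 16.5 to 21.3 times inside and 11.7 to 13.7 times outside.

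**Figure D1:**
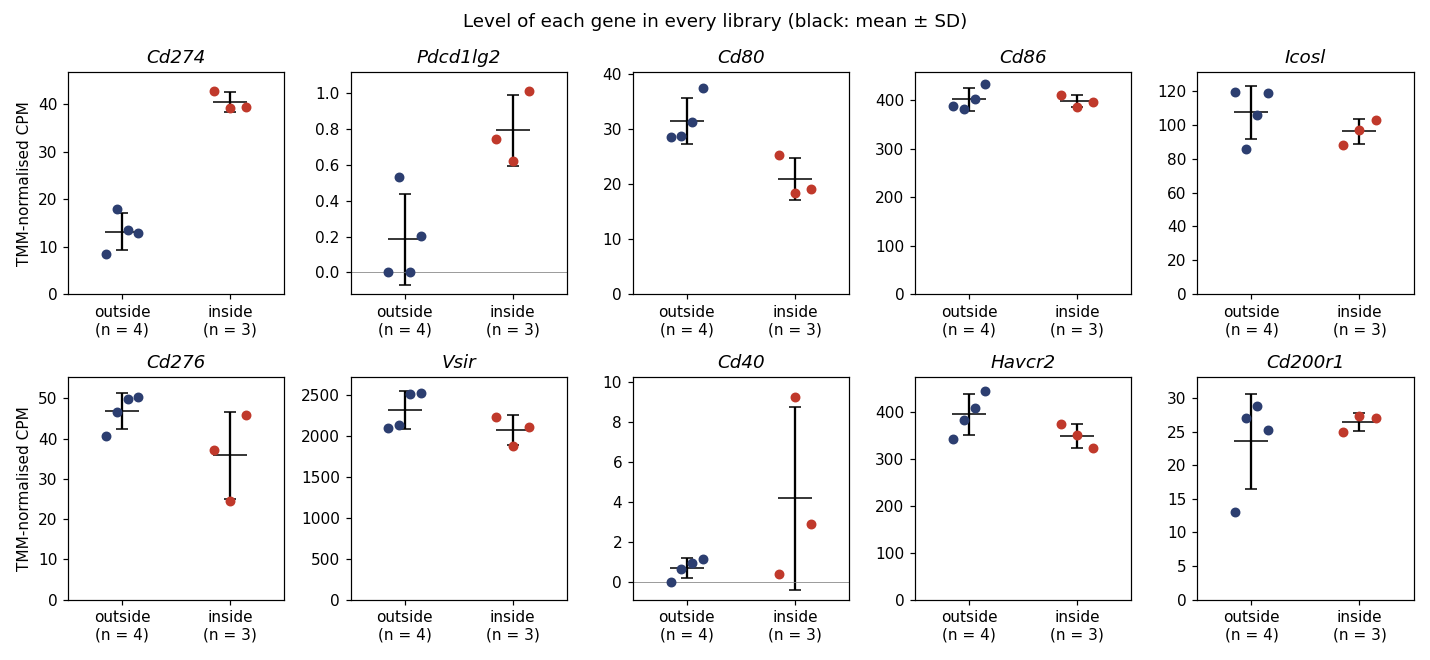
TMM-normalised CPM (linear axes from 0, a separate scale for each gene) of the 10 genes in the 4 outside (blue) and 3 inside (red) libraries, points in replicate order, with the mean and SD in black. The Cd274 points lie at 39.1 to 42.9 CPM inside and 8.41 to 17.95 CPM outside, the Cd80 points lie lower inside, and those of Cd86 overlap.

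Of the remaining ligands, none separated the groups. Icosl, the ligand of ICOS, had 88.1, 97.0 and 103 CPM inside and 119, 85.5, 106 and 119 CPM outside, with a log2 fold change of -0.17 (95% confidence interval -0.47 to 0.13). Cd276 (B7-H3), a B7 family member whose receptor is not settled, had 37.2, 24.5 and 45.9 CPM inside and 40.6, 46.7, 49.8 and 50.3 CPM outside. The inside libraries of Cd276 spread widely, with inside graft 3 within the outside range and inside graft 2 well below it. Its log2 fold change of -0.49 (95% confidence interval -0.91 to -0.07) was -0.24 without inside graft 2 and -0.67 without inside graft 3. With edgeR it was -0.39 (SE 0.209). Cd276 shares 416 exon bases with Gm10657, an unconfirmed transcript on the other strand.

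Vsir, which encodes the inhibitory B7 family molecule VISTA, was the most abundant member. It had 2231, 1874 and 2117 CPM inside and 2099, 2141, 2520 and 2532 CPM outside. Both outside grafts 3 and 4 exceeded the inside libraries, whereas outside grafts 1 and 2 lay among them. The log2 fold change was -0.21 (95% confidence interval -0.42 to -0.01). With edgeR it was -0.16 (SE 0.106), and without outside graft 4 it was -0.13.

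Among the receptors, Cd40 differed most between libraries. CD40 is a TNF receptor family member that activates antigen-presenting cells when it binds CD40 ligand. Inside grafts 1 to 3 had 10, 209 and 69 counts, or 0.392, 9.27 and 2.90 CPM. Outside grafts 1 to 4 had 0, 15, 24 and 29 counts, or 0, 0.667, 0.965 and 1.17 CPM. Inside graft 2 was the highest by far, and inside graft 1 lay within the outside range, so the groups overlapped. The count of 0 in outside graft 1 allows up to 0.160 CPM. The log2 fold change was 1.32 (SE 1.18, 95% confidence interval -1.28 to 3.93) with voomWithQualityWeights and 2.56 with edgeR. Without inside graft 2 it was 0.51, without inside graft 1 it was 2.79, and without outside graft 1 it was 0.94. Its ligand gene, Cd40lg, had 0 counts in every library.

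Havcr2 encodes TIM-3, an inhibitory receptor of T cells and myeloid cells. It had 374, 350 and 322 CPM inside and 343, 382, 410 and 446 CPM outside. The log2 fold change was -0.23 (95% confidence interval -0.45 to -0.00278). With edgeR it was -0.18 (SE 0.119), and without outside graft 4 it was -0.14. Outside graft 1 lay within the inside range and the other 3 outside libraries lay above it. Cd200r1, the inhibitory receptor through which neuronal CD200 restrains microglia, had 24.9, 27.4 and 27.0 CPM inside. Its outside values were 13.1, 27.1, 28.7 and 25.3 CPM, with outside graft 1 well below all the other libraries. The log2 fold change was 0.04 (95% confidence interval -0.41 to 0.50), and -0.04 without outside graft 1.

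All 10 genes passed the filter on low counts. In 2 members (Cd274 and Pdcd1lg2) every inside library was above every outside library, compared with 5.65% of all genes tested, and in 1 (Cd80) every inside library was below, compared with 5.03%. At an adjusted P below 0.05, 1 of 10 (Cd274) was called by voomWithQualityWeights, against a background of 0.492% of genes, and the same 1 by edgeR, against 0.0983%. At 0.01, the study's threshold, 0 of 10 were called by voomWithQualityWeights (background 0.0197%) or edgeR (background 0%) and 1, Cd274, by DESeq2 (background 1.52%). Unadjusted P was below 0.05 for 6 of 10 with voomWithQualityWeights (background 12.2%) and for 3 with edgeR (background 9.55%). The call at 0.05 was lost without outside graft 3 or without outside graft 4, when 0 of 10 passed. Calls at 0.05 fell over all genes in these fits, and not only for Cd274. They numbered 1 of 14867 without outside graft 3 and 1 of 14900 without outside graft 4, compared with 75 of 15257 in the main fit. The log2 fold change of Cd274 was 1.56 and 1.52 in these fits. Without inside graft 2 Cd274 passed 0.01 as well, against a background of 33 of 16041 genes. Since the comparison itself chose the members, nothing is read from these counts. The median log2 fold change of the 10 was -0.10, compared with -0.01 over all genes tested, and 4 members had a positive and 6 a negative estimate.

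**Figure D2:**
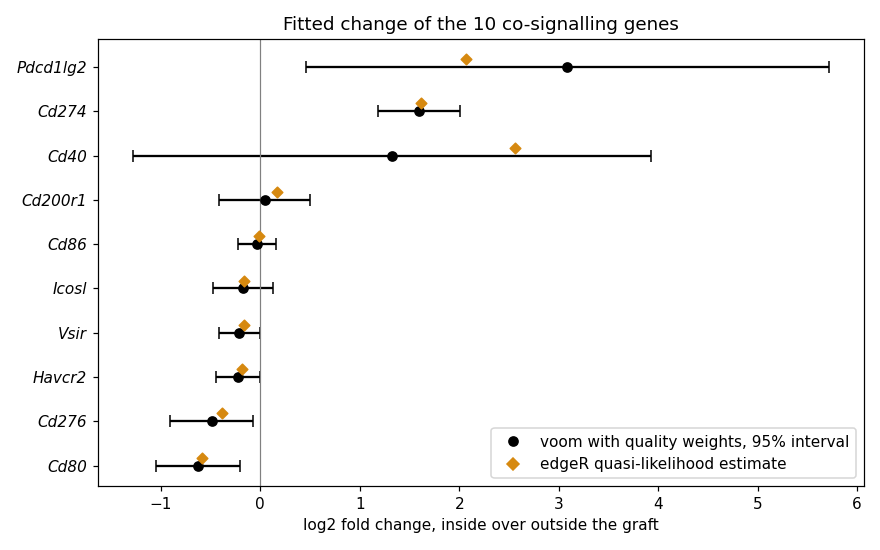
Log2 fold change of inside over outside libraries for the 10 genes. Black points and bars give the voomWithQualityWeights estimate and its 95% confidence interval, and orange diamonds the edgeR estimate. The interval of Cd274 runs from 1.18 to 2.00, whereas those of Pdcd1lg2 and Cd40 each span more than 5 log2 units.

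To compare levels between genes, CPM were divided by the exonic length in kilobases. Outside the graft the order was Vsir (463 ± 46.9 CPM per kilobase, SD, n = 4), Havcr2 (145 ± 15.9), Cd86 (110 ± 6.29), Icosl (23.2 ± 3.41), Cd276 (12.8 ± 1.22), Cd80 (8.49 ± 1.12), Cd200r1 (7.03 ± 2.12), Cd274 (3.64 ± 1.08), Cd40 (0.206 ± 0.150) and Pdcd1lg2 (0.0938 ± 0.128). The ranges of the outside libraries overlapped for the neighbours Cd80 and Cd200r1, Cd200r1 and Cd274, and Cd40 and Pdcd1lg2, and not for the other neighbours. Vsir, Havcr2 and Cd86 together held 91.5 to 92.6% of the summed level per kilobase inside and 92.7 to 93.0% outside. Among all genes tested, the outside level per kilobase of Vsir was at percentile 99.6, that of Cd274 at percentile 47.3 and that of Pdcd1lg2 at percentile 2.63.

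Inside the graft Cd274 moved from the eighth to the fifth place, with 11.2 ± 0.578 CPM per kilobase (SD, n = 3). It lay below Icosl (20.8 ± 1.61) without overlap, and its range overlapped that of Cd276 (9.81 ± 2.95), the next in order. Cd200r1 (7.89 ± 0.403) came next, followed by Cd80 (5.64 ± 1.02), Cd40 (1.23 ± 1.34) and Pdcd1lg2 (0.404 ± 0.101), and the 4 highest genes kept their order. Cd274 made up 1.53 to 1.63% of the summed level per kilobase inside and 0.331 to 0.684% outside. Its inside libraries were also the more alike, with a coefficient of variation of 5.18% inside and 29.6% outside, whereas for Cd276 it was 30.1% inside and 9.49% outside. Without outside graft 1, the lowest for Cd274 at 8.41 CPM, its outside mean was 14.8 ± 2.78 CPM, compared with 40.4 ± 2.09 CPM inside. Whether these spreads differ was not tested.

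**Figure D3:**
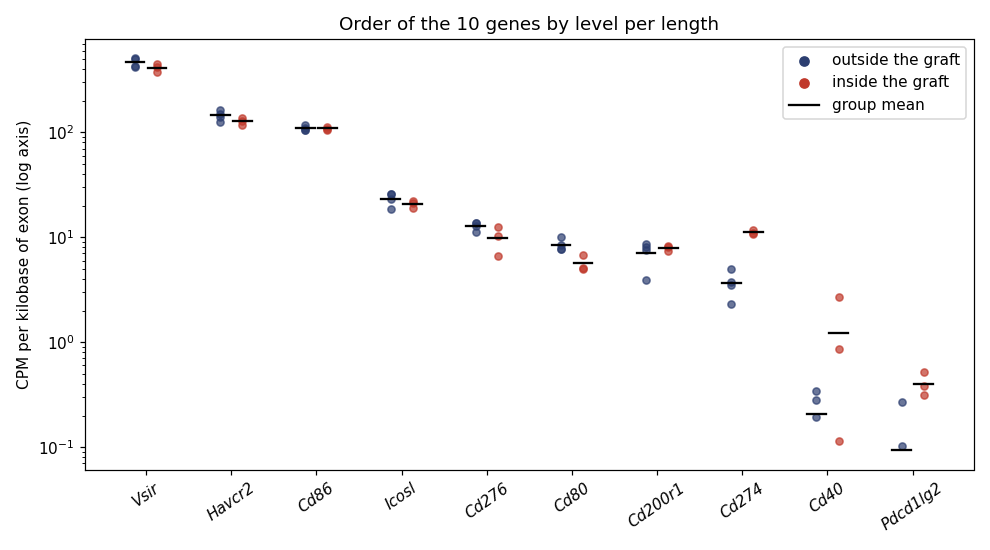
Level of each gene as CPM per kilobase of exon (log axis), ordered by the outside mean, with outside libraries in blue, inside libraries in red and group means as black lines. The 3 libraries with 0 counts (outside graft 1 for Cd40, outside grafts 1 and 3 for Pdcd1lg2) cannot be drawn on a log axis. Cd274 rises in the order to 11.2 CPM per kilobase inside, near Cd276 at 9.81.

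Markers of neutrophils, monocytes and border macrophages had higher median sums inside the graft. Summed CPM of 6 neutrophil markers were 3709, 387 and 7927 in inside grafts 1 to 3, compared with 0.266, 0.311, 177 and 18.05 in outside grafts 1 to 4. Of the 5 tested, 4 had a higher fitted level inside. S100a8, an alarmin gene and the most abundant of them, reached 4069 CPM in inside graft 3. Ly6g was 8.12, 2.22 and 17.4 CPM inside, although the sort had used antibodies to its product. Summed CPM of 8 monocyte markers were 716, 80.9 and 1479 inside and 6.60 to 29.7 outside. All 7 tested had a higher fitted level inside with voomWithQualityWeights. Vcan, however, was level in mean CPM (0.486 inside and 0.499 outside), with an edgeR log2 fold change of -0.03. Ccr2 overlapped between the groups, with 4.26 CPM in inside graft 2 and 4.05 to 18.1 CPM outside. Ace, which was not tested, had counts only outside. Chil3, which encodes a chitinase-like protein, was the most abundant at 586, 67.5 and 1186 CPM inside. Summed CPM of 8 border macrophage markers were 118, 16.8 and 125 inside and 5.95 to 17.8 outside, and all 7 tested were higher inside. Mrc1, the mannose receptor gene, led them at 61.2, 7.80 and 48.5 CPM inside. Inside graft 2 was therefore the lowest of the inside libraries in all 3 sums, with 387, 80.9 and 16.8 CPM, and the last value lay within the outside range. In this library Cd274 was 39.1 CPM, close to the 42.9 and 39.3 CPM of the other inside libraries. Without inside graft 2 the log2 fold change of Cd274 was 1.61, without inside graft 3, the highest in all 3 sums, it was 1.604, and without inside graft 1 it was 1.55. The highest level of Cd40, 9.27 CPM, was likewise in inside graft 2. The part of these cells in the levels of Cd274, Cd40 or the other members was not tested.

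The remaining marker lists did not separate the groups. The 9 dendritic cell markers summed to 42.7 to 63.9 CPM inside and 31.7 to 57.3 CPM outside, and Batf3, a transcription factor gene, was the most abundant. The 9 T and NK cell markers summed to 0.589 to 3.06 CPM inside and 0.373 to 1.17 CPM outside, led by the adaptor gene Lat, and Cd3d and Ncr1 had 0 counts in every library. The 6 B cell markers summed to 550 to 608 CPM inside and 604 to 669 CPM outside, nearly all from the immunoglobulin gene Ighm, while the defining marker Ms4a1 was at 0 in every library. No gene of the lists of other cell types passed an adjusted P of 0.05 with voomWithQualityWeights or edgeR, and DESeq2 called Pf4, Ms4a7, Ly6c2 and S100a8. At an unadjusted P below 0.05, voomWithQualityWeights had 5 border macrophage, 2 monocyte and 3 neutrophil markers, and edgeR 6, 6 and 4, of 7, 7 and 5 tested, compared with 12.2% and 9.55% of all genes.

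Genes around the members in the same pathways were followed with 6 lists. At an adjusted P below 0.05, 0 genes of any of these lists were called by voomWithQualityWeights, against a background of 0.433% of genes called higher and 0.059% called lower, and 0 were called by edgeR. Over all genes, the background was 12.2% for an unadjusted P below 0.05 with voomWithQualityWeights, 9.55% for the same with edgeR and 2.76% for calls by DESeq2 at an adjusted P below 0.05.

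Of 27 other co-signalling ligands and receptors of antigen-presenting cells, 11 were tested, with 8 higher and 3 lower estimates inside and a median log2 fold change of 0.21. Unadjusted P was below 0.05 for 4 of them with voomWithQualityWeights and for 2 with edgeR, and DESeq2 called 1, Tnfsf8. Tnfsf8, the ligand of CD30, had 24.6, 34.9 and 16.5 CPM inside and 2.98, 6.89, 2.17 and 10.1 CPM outside, without overlap, and a log2 fold change of 2.32 (SE 0.472, adjusted P = 0.0564). Cd200r4, an activating relative of the CD200 receptor, had 2.78, 12.1 and 5.38 CPM inside and 3.25, 1.91, 0.161 and 0.971 CPM outside, with overlap, and a log2 fold change of 3.02 (SE 0.886, adjusted P = 0.171). Vtcn1, Btn1a1, Tnfsf4, Vsig4, Fgl1 and Ido1 had 0 counts in all 7 libraries.

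Of 18 counter-receptors and partners of these ligands, 9 were tested, with 7 higher and 2 lower estimates and a median of 0.48. Unadjusted P was below 0.05 for 3 with either test, and DESeq2 called Pdcd1. Pdcd1, which encodes PD-1, the receptor of PD-L1, had 49.2, 74.0 and 23.5 CPM inside and 11.9, 19.95, 7.52 and 17.2 CPM outside. Every inside library lay above the outside ones, and the log2 fold change was 1.83 (SE 0.410, adjusted P = 0.0768). Btla, an inhibitory receptor gene, had 0.745, 4.66 and 3.03 CPM inside and 0.364 to 1.33 CPM outside, with a log2 fold change of 1.53 (SE 0.804, adjusted P = 0.498). Ctla4, Cd40lg and Cd226 had 0 counts in every library. Pdcd1 spread more between the inside libraries than Cd274 did, with inside graft 2 the highest and inside graft 3 the lowest.

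All 17 genes of interferon receptors, JAK-STAT signalling and the downstream regulators were tested, with 10 higher and 7 lower estimates and a median of 0.06. Unadjusted P was below 0.05 for 5 with either test (with voomWithQualityWeights 4 higher and 1 lower), and DESeq2 called Stat2. Ciita, the master regulator of MHC class II genes, had 5.45, 12.7 and 24.6 CPM inside and 0.373, 0.0444, 4.58 and 1.30 CPM outside, with a log2 fold change of 3.31 (SE 1.03, adjusted P = 0.199). Nlrc5, its counterpart for MHC class I, had 40.5, 104 and 70.3 CPM inside and 49.4, 20.2, 41.2 and 31.1 CPM outside, with a log2 fold change of 0.96 (SE 0.320, adjusted P = 0.242). Ciita did not overlap between the groups, whereas Nlrc5 did.

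The 12 regulators of PD-L1 protein, all tested, had 4 higher and 8 lower estimates and a median of -0.11. Unadjusted P was below 0.05 for 1 with either test and DESeq2 called 0. Cmtm6, whose product keeps PD-L1 from degradation, had 1240, 935 and 1051 CPM inside and 1252, 1272, 1401 and 1460 CPM outside, with a log2 fold change of -0.36 (SE 0.102, adjusted P = 0.161). Its relative Cmtm4 had 10.9, 12.5 and 18.2 CPM inside and 14.4, 21.5, 17.2 and 15.4 CPM outside, with a log2 fold change of -0.36 (SE 0.234, adjusted P = 0.603). The inside values of Cmtm6 lay below all outside values, by a small margin in inside graft 1.

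The 18 genes of CD40 and NF-kB signalling, all tested, had 7 higher and 11 lower estimates and a median of -0.10. Unadjusted P was below 0.05 for 4 with voomWithQualityWeights and for 3 with edgeR, and DESeq2 called Nfkb2. Traf1, an adaptor of TNF receptors, had 1.92, 1.33 and 8.41 CPM inside and 6.02, 0.222, 0.965 and 0.728 CPM outside, with a log2 fold change of 1.74 (SE 0.824, adjusted P = 0.433). Relb, an NF-kB subunit gene of the non-canonical branch, had 35.5, 43.6 and 48.2 CPM inside and 28.2, 37.9, 17.5 and 28.9 CPM outside, with a log2 fold change of 0.71 (SE 0.247, adjusted P = 0.265). Both overlapped between the groups.

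Of 11 kinases, phosphatases and adaptors that act below inhibitory receptors, 10 were tested, with 4 higher and 6 lower estimates and a median of -0.01. None had an unadjusted P below 0.05 with voomWithQualityWeights or edgeR, and DESeq2 called 0. Dok2, an adaptor used by CD200R, had 3.02, 4.12 and 4.29 CPM inside and 0, 2.27, 1.73 and 2.87 CPM outside, with a log2 fold change of 1.18 (SE 0.783, adjusted P = 0.617). Ptpn11, which encodes the phosphatase SHP-2, had 36.5 ± 3.18 CPM (SD, n = 3) inside and 31.2 ± 4.16 CPM (SD, n = 4) outside, with a log2 fold change of 0.25 (SE 0.170, adjusted P = 0.626).

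**Figure D4:**
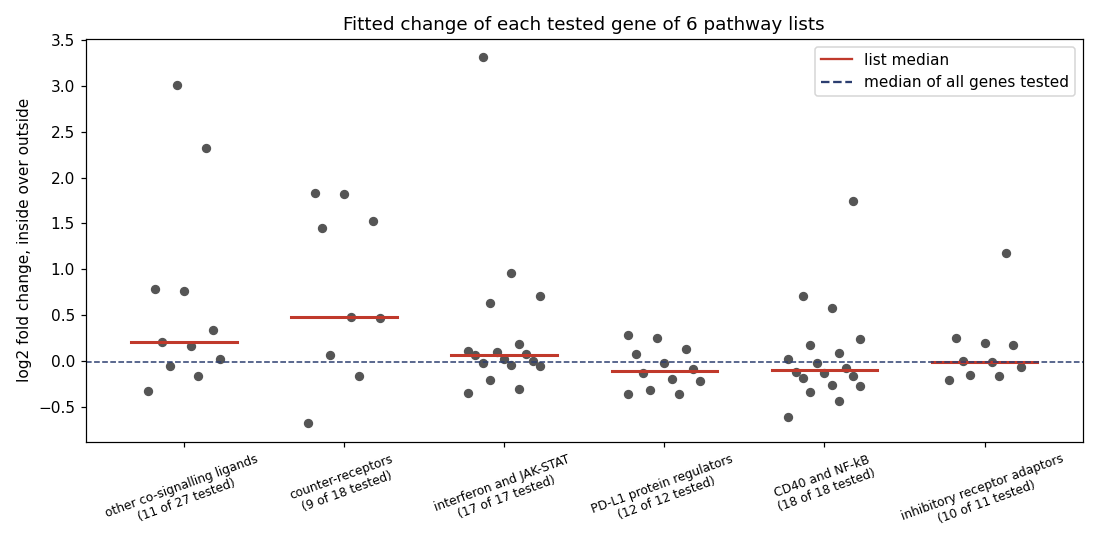
Log2 fold change of inside over outside libraries for each tested gene of the 6 pathway lists (points), with the list median (red line) and the median of all genes tested (blue dashed line, -0.01). List medians run from -0.11 for the PD-L1 protein regulators to 0.48 for the counter-receptors, and the single highest point is Ciita at 3.31.

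The genes on either side of Cd274 were chosen for description after its values had been seen. Plgrkt, a plasminogen receptor gene that starts at -0.1 kb from the Cd274 start, had 199 ± 23.7 CPM (SD, n = 3) inside and 193 ± 7.78 CPM (SD, n = 4) outside, and a log2 fold change of 0.03 (SE 0.103, adjusted P = 0.955). Jak2, the kinase gene at -115.6 kb from the Cd274 start, had 50.6 ± 14.7 CPM inside and 51.3 ± 5.72 CPM outside. The hormone genes Insl6 and Rln1, between Jak2 and Plgrkt, had at most 4 counts in a library and were not tested. Beyond Pdcd1lg2, which starts 43.5 kb after the Cd274 start, Ric1 at 154.8 kb had a log2 fold change of 0.46 (SE 0.210, adjusted P = 0.415) and Ermp1 at 281.0 kb one of 0.19 (SE 0.257, adjusted P = 0.844). Both lay well below the value of 1.59 for Cd274.

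**Figure D5:**
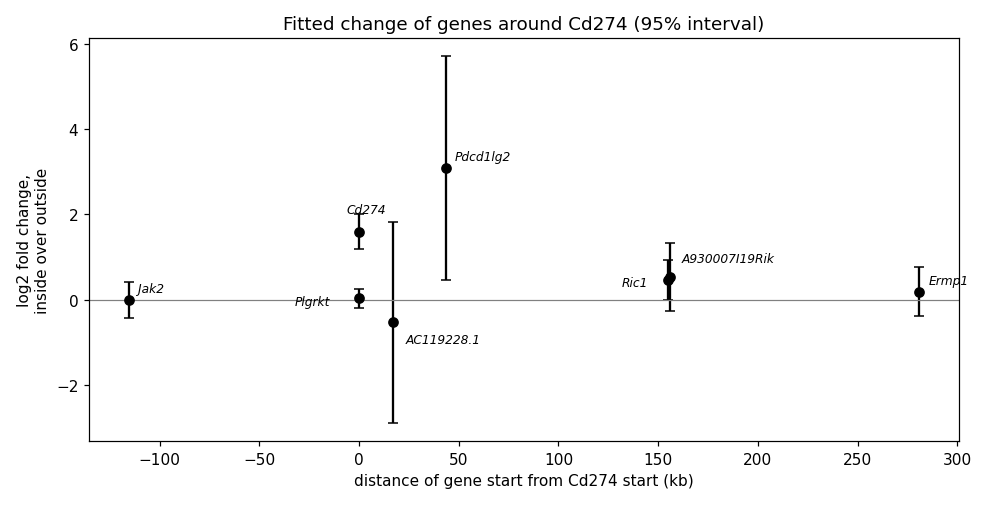
Log2 fold change of inside over outside libraries, with its 95% confidence interval, for tested genes within 150 kb of the stretch from Cd274 to Pdcd1lg2, against the distance of their annotated starts from that of Cd274. Cd274 (1.59) and Pdcd1lg2 (3.09, with a wide interval) lie highest, while Plgrkt and Jak2 lie near 0.

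The pattern of Cd274 over the 7 libraries was compared with that of 13142 tested genes with a mean of at least 1 CPM, as the root mean square difference of log2 CPM centred on each gene's mean. The 5 closest were Pde8a (difference 0.158), a phosphodiesterase gene that was 10.7 ± 1.16 CPM inside and 3.78 ± 1.27 CPM outside, Zcwpw2 (0.182, 3.24 ± 0.187 and 0.891 ± 0.134 CPM), Synj2 (0.273, 30.4 ± 6.95 and 9.45 ± 3.002 CPM), Dennd2d (0.281, 5.63 ± 1.52 and 2.26 ± 0.648 CPM) and Cenpa (0.290, 16.0 ± 0.950 and 5.60 ± 2.06 CPM), with SD and n = 3 and 4. Synj2 encodes an inositol phosphatase and Cenpa the centromeric histone. All 5 lay higher in every inside library than in any outside library. They were chosen for this likeness, so no test of it is given.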

How the data were processed

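RNA from sorted microglia was amplified with the SMARTer kit and sequenced as single reads. According to the labels and the file header, the authors aligned the reads to GRCm38.p6 with STAR 2.7.2a and counted them by gene name with featureCounts 1.6.2 on the GENCODE M21 annotation. The deposited values are these raw counts, not normalised. Strand was not used, reads that map to several places were left out, and a read over several genes went to the one with the largest overlap. Amplified reads are not independent molecules, and the floors given for counts of 0 cover counting error only. The confidence intervals come from the spread between these libraries. The deposited counts were filtered with filterByExpr and TMM-normalised, and groups were compared with voomWithQualityWeights (limma 3.58.1), as in the study's methods, beside edgeR 4.0.16 quasi-likelihood, in R 4.3.3. Both used Benjamini-Hochberg adjustment over 15257 genes. They were also run on simulated counts to check the code. Those counts held no library set apart and no other cell types, so they do not measure how reliable the calls are. Alternatives were DESeq2 1.42.0, other normalizations, filters and weights, a replicate block and each library left out. Members and lists were chosen with earlier results of these data known. Named list genes were up to 3 per direction at an adjusted P below 0.05 or, without any, the 2 with the largest fold change at a mean of 1 CPM or more. For marker lists these were the most abundant gene and those at 0, apart from items that are not reported here. Other genes, such as Ly6g, were named after their values were seen.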

Additional observations from a re-analysis of the deposited data

Results flagged for a closer look

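For 47 values (members, list sums and named genes), the 4 outside libraries were tested for 1 library far from the others. This was found for 5 values, none of them a member. Chance gives about 1 in 20 for independent values. These were not independent, since S100a8 is part of the neutrophil sum, so the count of 5 is not read against chance. Outside graft 3 had 177 CPM of summed neutrophil markers (0.266 to 18.05 in the others), 80.2 CPM of S100a8 (0.0889 to 8.90) and 14.95 CPM of Chil3 (0 to 1.38), and its Cd274 level of 13.5 CPM lay between those of the other outside libraries. Outside graft 1 had 6.02 CPM of Traf1 (0.222 to 0.965 in the others) and 0.692 CPM of Zcwpw2 (0.931 to 0.978).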

How the results depend on the processing

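Cd274 kept its direction in all 16 alternative fits, with a log2 fold change of 1.45 to 1.65 under other processing and 1.52 to 1.68 with each library left out. The number of members past 0.05 was 0 to 1 with each library left out, and 0 at a threshold of 0.01 in the main fit. It was 0 without outside graft 3 or 4, when 1 gene passed over the whole table in either fit. Cd274 alone passed 0.01 with a minimum of 10 counts in each library or 1 in any, with DESeq2 and without inside graft 2. Since the comparison chose the members, nothing is read from these counts. Pdcd1lg2 and Cd40 fell below a filter of 10 counts in every library and have no value there. Cd86 and Cd200r1 changed sign in some fits, near 0. The genes called at 0.01 over the whole table numbered 3, compared with 1 without scaling factors, 48 under a minimum of 10 counts in each library, 41 under a minimum of 1 count in any, 0 with edgeR, 1 without quality weights, 232 with DESeq2 and 75 at a threshold of 0.05, and 0 to 33 with each library left out. The cause was not tested. Same-numbered libraries had correlations of -0.04, 0.09 and 0.07 in their deviations, and differently numbered ones -0.12 to 0.06. The labels do not say which pieces share a mouse, and these values cannot decide whether the numbers pair the libraries. With the number as a replicate block, without outside graft 4, 77 genes were called at 0.01, compared with 0 for the same libraries without the block. At 0.05 the main fit called 75 of 15257 genes over the whole table. The filter of 10 counts called 211 of 12066, the block 265 of 14900 and the filter of 1 count 225 of 29525. DESeq2 called 2.76%. Tnfsf8 was the 1 gene called at 0.05 among other ligands with the filter of 10 counts, DESeq2 and the block. Pdcd1 was the 1 among counter-receptors under the same 3 settings, and with each library left out that count was 0 to 1. In the interferon list 1 gene was called with at least 1 count in any library (Ifngr1), DESeq2 (Stat2) and the block (Stat2), and in the CD40 list 1 with DESeq2 (Nfkb2). Without length, Cd274 kept the eighth place outside, while Cd86 passed Havcr2. Levels of a few counts limit Pdcd1lg2 and Cd40.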
